A study of Mus musculus with 23 samples.

Results

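The Trim genes encode tripartite motif proteins, which carry a RING domain, 1 or more B-boxes and a coiled coil. They were taken as every gene whose symbol begins with Trim followed by a number, measured by a probe set that carries a single gene symbol. The rule gave 59 genes, 1 of them the pseudogene Trim30e-ps1, of 19938 genes tested, and each had 1 such probe set. They were described on 23 arrays of bone marrow-derived macrophages grown from C57Bl/6 wild type mice with M-CSF at 10 ng/mL, which was withdrawn after 6 days, 1 to 3 days before treatment. The vehicle group received bovine serum albumin (BSA) at 125 µM for 5 h (n = 3). The other groups (n = 4 each) received lipopolysaccharide (LPS) at 1 ng/mL for 5 h, or oleic acid (OA) or stearic acid (SA) at 250 µM for 5 h or for 20 h. Both acids were carried by BSA at 2 molecules of acid per BSA molecule. No BSA concentration is listed for the LPS group, so LPS and vehicle may also differ in BSA. The labels give 5 h for vehicle and LPS where the series text gives 4 h, and there was no 20 h vehicle.

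Most TRIM proteins are E3 ubiquitin ligases, and many change the signals that pass from innate sensors to interferon and NF-kappaB. A number of them are themselves interferon-stimulated genes, and rodents carry an expanded group of TRIM5-like and TRIM30 genes. LPS, a cell wall lipid of Gram-negative bacteria, is sensed by TLR4, which in macrophages signals through both NF-kappaB and type I interferon. SA is a saturated fatty acid, and OA is a monounsaturated one of the same chain length.

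Values are log2 expression from RMA as deposited, so a difference of 1 is a 2-fold change, and levels are compared only within a gene. A gene was called where limma's moderated test of a group difference gave a Benjamini-Hochberg adjusted p under 0.05 over all 19938 genes. The labels speak of replicate wells and the series text of biological replicates. The p-values therefore cover only the scatter among these arrays, part of which may be technical. In bulk RNA, fewer cells of a type and less RNA per cell cannot be told apart. Array medians over the genes tested lay between 4.18 and 4.33. All 7 macrophage markers listed were measured, and their mean lay between 9.03 and 9.95 on every array. The means of listed lymphocyte, dendritic cell, erythroid and stromal markers lay between 2.61 and 3.76. Of the neutrophil markers, S100a8 (11.4), S100a9 (10.97), Ngp (8.06) and Camp (7.08) lay above 4.25, the median over all genes tested. Ly6g (2.78) and Elane (3.68) lay below it. Array 2 of 20 h SA stood apart, with an SD of 0.215 around its group's gene means against 0.129 to 0.185 on the other arrays.

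Among the 6 groups, 29 of the 59 Trim genes differed in limma's F test, against 35.7% of all genes tested. Of these 29, 14 were highest with LPS, and 12 had group means at least 1 log2 unit apart. The highest group mean of 26 members lay below 4.25, the median over all genes tested, where a low value may reflect a gene that is not expressed or a weak probe set. The F test called 4 of those 26 and 25 of the other 33.

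**Figure D1:**
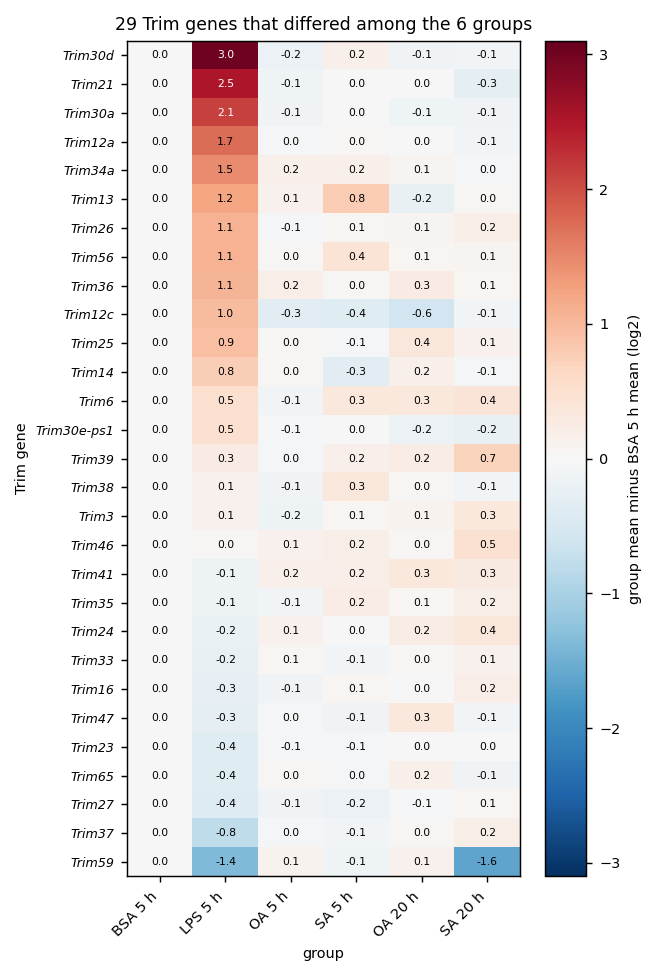
Heat map of the 29 Trim genes that differed among the 6 groups in limma's F test, with group means relative to the 5 h BSA mean on the log2 scale. The strongest colours stand in the LPS column, from 3.01 for Trim30d to -1.36 for Trim59, and in the 20 h SA cell of Trim59.

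LPS against vehicle at 5 h gave the largest response of the family. Against a background of 22.4% of all genes called, 9.22% risen and 13.2% fallen, 14 of the 59 Trim genes rose and 6 fell. The median difference was -0.00 over the 59 members and -0.02 over all genes tested. No called member had arrays that overlapped between the groups. The rise was led by genes of the TRIM5/TRIM30 cluster, of which 7 of 12 listed were measured, 6 rose and none fell (median 1.47). Of 14 members listed for innate and antiviral signalling, 5 rose and 3 fell (median -0.12).

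Sequence around the start of 7 of the 14 risen genes held the interferon-stimulated response element, the DNA site bound by the interferon factor ISGF3 and by interferon regulatory factors. It was searched as GAAA, any 2 bases and GAAA (TTTC, any 2 bases and TTTC on the other strand), on both strands from 250 bases before to 50 after each start in RefSeq's GRCm38.p6. The 7 are printed because they are all the risen genes that held the element, each 5′ to 3′ on its gene's strand with the element in capitals and adjacent or overlapping copies joined. The segments are chr7:104507871-104507900 (minus strand) for Trim30d, chr7:104465210-104465239 (minus) for Trim30a, chr7:102565447-102565476 (minus) for Trim21, chr7:104315466-104315495 (minus) for Trim12a, chr7:104353359-104353388 (minus) for Trim12c, chr7:104244457-104244486 (plus) for Trim34a and chr17:36836979-36837008 (plus) for Trim26.
Trim30d: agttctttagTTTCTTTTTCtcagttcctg
Trim30a: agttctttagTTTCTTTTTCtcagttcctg
Trim21: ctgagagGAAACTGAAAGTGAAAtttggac
Trim12a: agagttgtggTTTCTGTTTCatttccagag
Trim12c: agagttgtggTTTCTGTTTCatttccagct
Trim34a: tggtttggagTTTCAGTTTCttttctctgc
Trim26: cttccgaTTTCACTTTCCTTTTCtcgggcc

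With the start as +1, the element lay at -41 to -32 in Trim30d, -36 to -27 in Trim30a and -29 to -20 in Trim12c, and downstream of the start at 11 to 20 in both Trim12a and Trim34a. Trim21 held 2 overlapping matches, at 14 to 23 and 20 to 29, and Trim26 also held 2, at -160 to -151 and -154 to -145. RefSeq listed a second start for Trim30a, with a match at 3 to 12. A promoter was listed for 46 of the 59 Trim genes. The element was found in 7 of the 11 risen genes with a promoter (63.6%), in 1 of 35 that did not rise (2.9%, Trim2), in 0 of 5 that fell and in 1079 of 27025 genes of the table (4.0%). The risen genes Trim13, Trim25, Trim56 and Trim6 had a promoter without a match. Of the 7 with the element, Trim30d, Trim30a, Trim12a, Trim12c and Trim34a are related genes of the TRIM5/TRIM30 cluster. The share counts each of them as a separate gene, though related copies are not independent. Of the risen genes with a promoter outside that cluster, Trim21 and Trim26 held the element, and Trim13, Trim25 and Trim56 did not. The kappaB site, the binding motif of NF-kappaB, had matches in 1 of the 11 risen genes (9.1%, Trim13), in 3 of the 35 others (8.6%) and in 9.6% of all genes. A match describes these letters only, and binding was not measured.

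**Figure D2:**
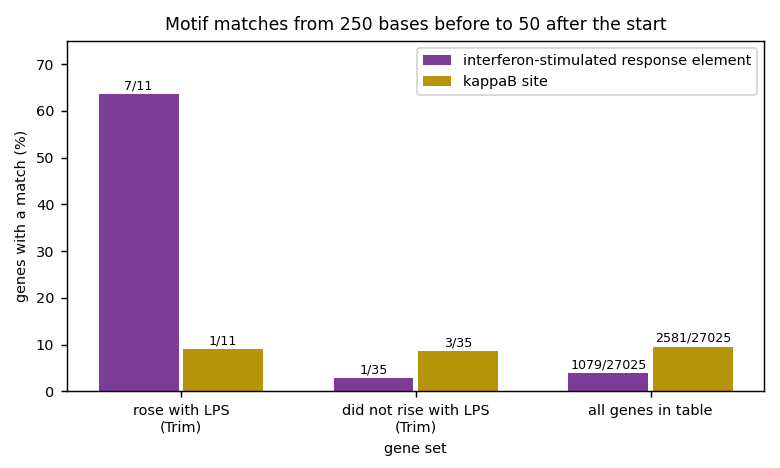
Share of genes (%) with a match to each motif from 250 bases before to 50 after the start, for Trim genes that rose with LPS (11 with a promoter), Trim genes that did not rise (35) and all genes of the table (27025). The response element stands at 63.6% in the first set against 2.9% and 4.0%, and the kappaB site at 9.1%, 8.6% and 9.6%. The first set counts related genes of the TRIM5/TRIM30 cluster as separate genes.

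Trim30d and Trim30a shared more than the element. The stretches just upstream of their starts, chr7:104507855-104507930 and chr7:104465194-104465269 (both minus strand), are printed because the 2 genes rose together, and they differed at 1 of 76 bases. Over the 245 bases that could be compared upstream of the starts, 19 differed.
Trim30d: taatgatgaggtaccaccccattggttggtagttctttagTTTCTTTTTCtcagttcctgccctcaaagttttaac
Trim30a: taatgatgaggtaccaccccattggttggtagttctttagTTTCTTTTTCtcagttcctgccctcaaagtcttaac

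Trim30d, a paralogue of Trim30a, had the largest rise. It measured 6.42, 6.92 and 6.23 on the vehicle arrays and 9.54, 9.43, 9.66 and 9.50 with LPS. The LPS mean of 9.53 ± 0.10 (SD, n = 4) stood 3.01 ± 0.14 (SE) above the vehicle mean of 6.52 ± 0.36 (SD, n = 3), an 8.05-fold rise with a limma adjusted p of 1.94e-14. The 16 fatty acid arrays lay between 6.13 and 6.84, so the LPS arrays alone were high. Among all 19938 genes, the rise ranked 74.

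Trim30a, an interferon-inducible ligase known to restrain TLR signalling by promoting loss of TAB2 and TAB3, measured 8.04, 8.06 and 7.96 with vehicle. With LPS it measured 10.10, 10.06, 10.18 and 10.22, a rise of 2.12 ± 0.09 (4.34-fold, limma adjusted p = 1.09e-15). No LPS array came near the other groups, since the fatty acid arrays lay between 7.76 and 8.11. Tab2 itself rose by 0.92 ± 0.11 with LPS.

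Trim12a, a TRIM5-like gene, measured 5.19, 5.10 and 5.36 with vehicle and 6.80, 6.70, 7.30 and 7.0 with LPS. It rose by 1.73 ± 0.15 (3.33-fold, limma adjusted p = 1.82e-09). Its paralogue Trim12c measured 6.18, 6.04 and 5.88 with vehicle and 6.85, 6.80, 6.91 and 7.52 with LPS, and rose by 0.98 ± 0.22 (1.98-fold, limma adjusted p = 0.00129). The groups did not overlap for either gene, and the Trim12c array at 7.52 stood apart from the other LPS arrays.

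Trim34a, another gene of the cluster, measured 5.80, 5.56 and 5.61 with vehicle against 6.96, 7.12, 7.25 and 7.16 with LPS. All LPS arrays were above all vehicle arrays, with a rise of 1.47 ± 0.10 (2.76-fold, limma adjusted p = 2.06e-11). Trim6 (3.13 to 3.63, limma adjusted p = 0.0103) and the pseudogene Trim30e-ps1 (2.45 to 2.95, limma adjusted p = 0.00245) rose by 0.51 and 0.50 at low levels. Without vehicle array 2, the rise of Trim6 no longer passed. Trim68 was the cluster list's measured member that did not pass, at 4.30 with LPS and 4.78 with vehicle. Reads on near-identical copies cannot be assigned with certainty by array probes, so the split between Trim30a, Trim30d and Trim30e-ps1, and between Trim12a and Trim12c, is uncertain.

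The cluster genes also lie side by side. On chromosome 7, the members Trim6, Trim34a, Trim12a, Trim12c, Trim30a, Trim30d and Trim30e-ps1 follow each other, and 7 of these 7 rose with LPS. Of RefSeq's protein-coding genes, only other Trim genes and Gm38525 lie between them, and other kinds of gene were not counted. The run was chosen after the values were seen. Trim68 is not part of it. A run of 5 members on chromosome 17 (Trim26, Trim15, Trim10, Trim40 and Trim31) held 1 gene that rose and 1 that fell.

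Trim21, the cytosolic antibody receptor that sends antibody-coated virus to the proteasome, had the second-largest rise. It measured 5.49, 5.60 and 5.50 with vehicle and 8.18, 8.04, 8.05 and 7.91 with LPS. The rise was 2.52 ± 0.16 (5.72-fold, limma adjusted p = 3.67e-12). The fatty acid arrays lay between 4.86 and 5.81, below every LPS array.

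The other innate signalling members that rose did so by smaller amounts. Trim26, a ligase that acts on IRF3, went from 4.93 ± 0.20 (SD, n = 3) to 6.01 ± 0.26 (SD, n = 4), a rise of 1.09 ± 0.14. Trim56, a ligase linked to STING signalling, went from 6.48 ± 0.34 (SD, n = 3) to 7.57 ± 0.08 (SD, n = 4), a rise of 1.08 ± 0.17. Trim25, which ubiquitinates the RNA sensor RIG-I, measured 7.77, 7.95 and 7.90 with vehicle and 8.79, 8.70, 8.78 and 8.92 with LPS. Its rise was 0.92 ± 0.09 (1.90-fold, limma adjusted p = 1.82e-08). Trim14, an adaptor of MAVS signalling that lacks a RING domain, measured 7.20, 7.34 and 7.17 against 7.91, 7.85, 8.18 and 8.10, a rise of 0.77 ± 0.11 (1.71-fold, limma adjusted p = 3.37e-06). In each of these genes every LPS array lay above every vehicle array. Outside the 2 lists, Trim13, a ligase anchored in the endoplasmic reticulum, rose by 1.23 ± 0.19 (2.34-fold, limma adjusted p = 1.75e-05). Trim36, a microtubule-associated ligase, rose by 1.06 ± 0.15 (2.09-fold, limma adjusted p = 7.55e-06).

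**Figure D3:**
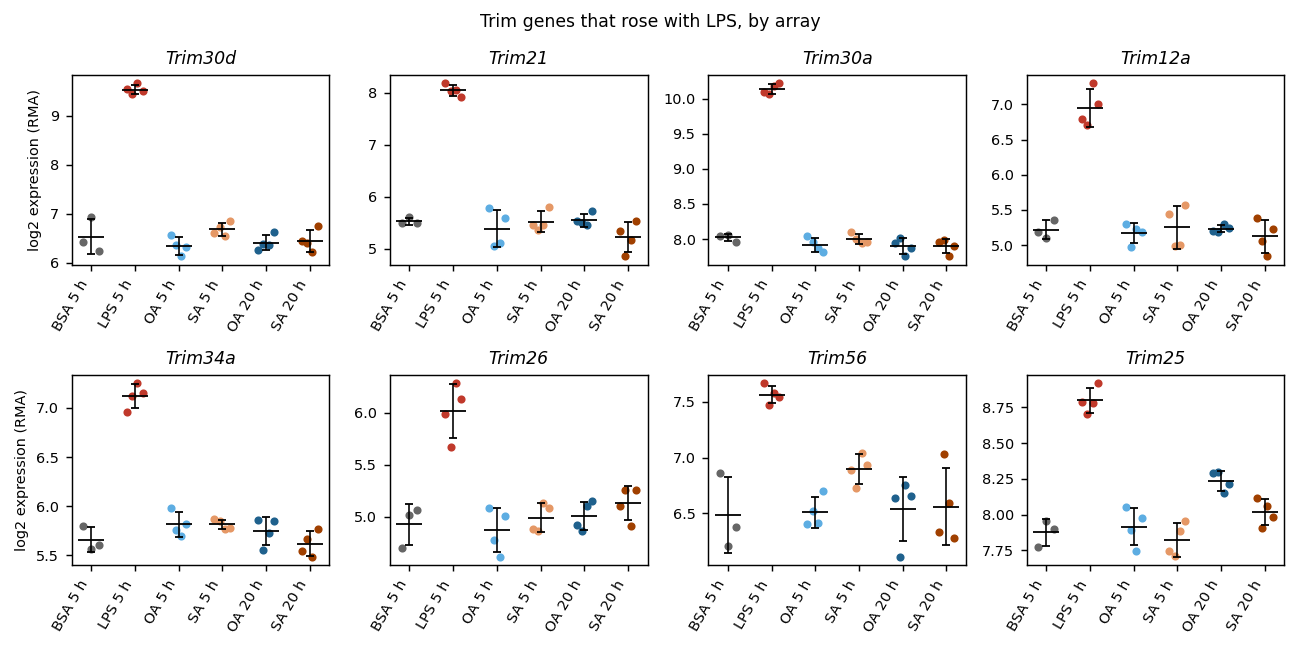
Level of LPS-responsive Trim genes on each of the 23 arrays (points, log2 expression), with group mean and SD (black). In the LPS group Trim30d reached 9.43 to 9.66 against 6.23 to 6.92 with vehicle, and the fatty acid groups stayed within 6.13 to 6.84.

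Of the 6 members that fell with LPS, Trim59 fell the most. Trim59, a membrane-anchored family member of the endoplasmic reticulum, measured 5.92, 5.69 and 5.65 with vehicle and 4.29, 4.16, 4.58 and 4.52 with LPS. The difference was -1.36 ± 0.18 (2.57-fold lower, limma adjusted p = 1.93e-06). Trim37, a ligase of peroxisomes and centrioles, measured 4.74, 4.89 and 5.16 against 4.31, 4.13, 3.70 and 4.41, a difference of -0.79 ± 0.18 (1.73-fold lower, limma adjusted p = 0.00145). Neither gene overlapped between the groups.

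The remaining falls were small. Trim27, a RING ligase first described as a fusion partner of RET, differed by -0.41 ± 0.12 (limma adjusted p = 0.0138), but no longer passed without vehicle array 1 (adjusted p = 0.056) or LPS array 1 (adjusted p = 0.0603). Trim65, a ligase of the RNA sensor MDA5, differed by -0.38 ± 0.13 (limma adjusted p = 0.0325) and lost its call in 7 of 15 alternative fits. Trim23, which carries an ARF GTPase domain, differed by -0.37 ± 0.11 (limma adjusted p = 0.0116) and lost its call in 2 of 15. Trim10, known from erythroid cells, differed by -0.45 ± 0.16 (limma adjusted p = 0.0489) and lost its call in 7 of 14.

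**Figure D4:**
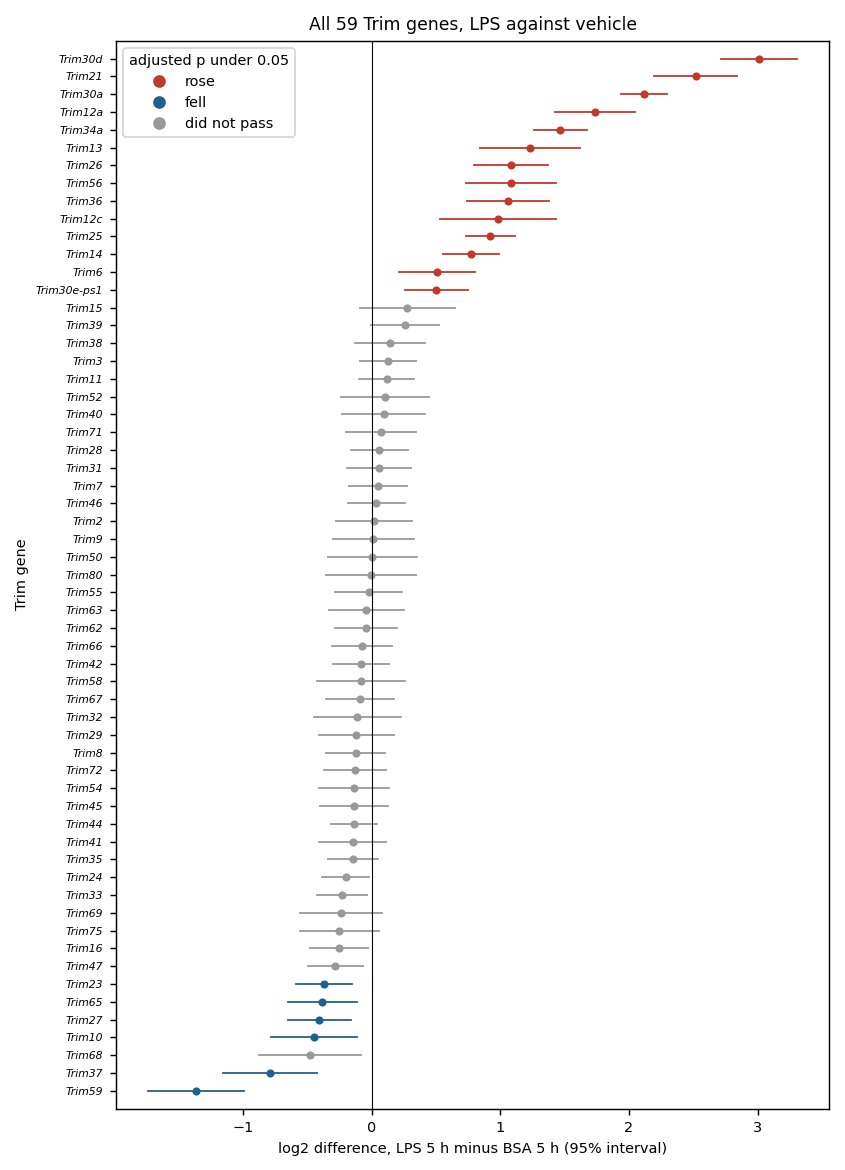
Difference between LPS and vehicle at 5 h (log2, with 95% interval) for all 59 Trim genes, coloured by whether the adjusted p was under 0.05. The 14 that rose reach from 0.50 to 3.01 and the 6 that fell from -0.37 to -1.36.

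The other role lists held both called and uncalled members with LPS. Both membrane-anchored members were called, Trim13 up and Trim59 down, and of the 2 erythroid members Trim10 fell and Trim58 was not called. None of the 4 chromatin co-repressors measured was called by limma. Trim24 stood at 5.15 against 5.35 (difference -0.20, adjusted p = 0.111) and Trim33 at 6.71 against 6.94 (difference -0.23, adjusted p = 0.0875). Trim28, the co-repressor recruited by KRAB zinc finger proteins, differed by 0.06 with a 95% interval of -0.16 to 0.28. Trim33 passed under quantile normalization (adjusted p = 0.0326) and without LPS array 4 (0.0433). None of the 4 NHL-repeat proteins was called either, among them Trim2 (difference 0.02, adjusted p = 0.953). None of the 4 muscle and membrane repair proteins was called, and of the 4 microtubule-associated COS-box proteins 1 rose, Trim36.

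Of 22 listed genes that TRIM proteins act on or that induce them, 19 were measured, of which 14 rose with LPS and 1 fell (median 0.92). The largest rises were in Usp18 (4.07), the interferon-induced enzyme that removes ISG15, the RNA sensor gene Ifih1 (3.59) and the interferon factor Irf7 (3.57). Ddx58, the gene of RIG-I, rose by 2.86, the interferon gene Ifnb1 by 2.71 and the interferon factor Stat2 by 2.26. Mavs fell by 0.35. Among macrophage markers, 1 of 7 rose and 3 fell with LPS, and 1 of 6 neutrophil markers rose. Their part in the Trim differences was not tested.

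SA against vehicle at 5 h called 1 Trim gene against a background of 3.33% of all genes (1.94% risen, 1.39% fallen). The gene was Trim13, which rose. It measured 5.65, 5.64 and 5.93 with vehicle, 6.39, 6.35, 6.75 and 6.59 with SA, and 6.65, 7.09, 6.90 and 7.25 with LPS. SA and vehicle arrays did not overlap, and the rise was 0.78 ± 0.19 (1.72-fold, limma adjusted p = 0.0181). It no longer passed without vehicle array 1 (adjusted p = 0.0906), vehicle array 2 (0.101) or SA array 3 (0.0673).

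The other 13 genes that rose with LPS were not called with SA at 5 h. Trim56 stood at 6.90 ± 0.13 (SD, n = 4) against 6.48 (difference 0.41, limma adjusted p = 0.237). Trim14 stood 0.32 below vehicle on arrays that did not overlap (limma adjusted p = 0.117), and passed with an intensity trend and robust moderation (adjusted p = 0.0478). Of the 19 other pathway genes 1 rose, the interferon factor Irf1, by 1.44 (limma adjusted p = 2.49e-08), while Ifnb1 differed by -0.09 (limma adjusted p = 0.911). With SA, 2 of 7 macrophage markers and 1 of 6 neutrophil markers fell against vehicle and none rose, and their part in the rise of Trim13 was not tested.

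OA against vehicle at 5 h called 0 of 59 Trim genes in limma, against 0.0702% of all genes (0.0201% risen, 0.0502% fallen). At an unadjusted p under 0.05, 1 Trim gene passed, Trim10. The largest difference in either direction was 0.37, and the 95% intervals of all 59 genes lay within a 2-fold change. Trim30d, for example, measured 6.57, 6.36, 6.13 and 6.31 with OA, within the range of the vehicle arrays but for 1 lower array.

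At 5 h, SA and OA were compared at the same dose and time, for 59 members with p-values adjusted over all genes. Limma called 3 higher and 1 lower with SA, against 5.67% of all genes called (3.3% higher, 2.37% lower). Trim13 measured 5.78, 5.68, 5.99 and 6.07 with OA, all below the SA arrays, and was 0.64 ± 0.17 higher with SA (adjusted p = 0.0288). The call was lost without OA array 1 (adjusted p = 0.072), OA array 2 (0.0979), SA array 3 (0.104) or SA array 4 (0.0723). Trim14 measured 7.43, 7.32, 7.02 and 7.37 with OA and 6.82, 6.82, 7.04 and 6.98 with SA, 0.37 ± 0.10 lower with SA (adjusted p = 0.0253). The groups overlapped at the lowest OA array, and the adjusted p was 0.124 with only these 2 groups fitted and 0.0655 to 0.0873 without OA array 1, 2 or 4 or SA array 1 or 2.

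The other calls at 5 h were in Trim38, a regulator of TLR signalling (0.44 ± 0.12 higher with SA, limma adjusted p = 0.0336), and Trim35 (0.31 ± 0.09 higher, limma adjusted p = 0.0347). Both overlapped between the acids. Trim38 stood at 1.90 with OA and 2.34 with SA, below 4.25, the median over all genes tested. At such levels a value may reflect a gene that is not expressed or a weak probe set. Trim38 was also absent from the fit that left out the dimmest genes. With only these 2 groups fitted the adjusted p was 0.129 for Trim38 and 0.201 for Trim35, and it was 0.0503 for Trim38 with array weights and 0.0661 for Trim35 with arrays centred on their median. The adjusted p of Trim38 reached 0.0637 to 0.136 without OA array 1 or 3 or SA array 1, 2 or 4, and that of Trim35 0.0727 to 0.136 without OA array 1 or 2 or SA array 1, 3 or 4. For the LPS-responsive genes that did not pass, the 95% intervals of SA minus OA were 0.06 to 0.61 for Trim30d (adjusted p = 0.173), -0.08 to 0.25 for Trim30a, -0.16 to 0.44 for Trim21, -0.19 to 0.19 for Trim34a, -0.27 to 0.08 for Trim25 and 0.07 to 0.71 for Trim56 (adjusted p = 0.179). These intervals leave differences of part of a log2 unit possible. The interval of 58 of the 59 members lay within a 2-fold change, and that of Trim13 reached 1.00. Macrophage markers were lower with SA in 3 of 7, with a list mean of 9.35 to 9.39 on the SA arrays and 9.72 to 9.76 on the OA arrays, and their part was not tested.

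SA was set beside LPS at 5 h to compare their levels directly. This comparison shares the LPS arrays with LPS against vehicle. Limma called 8 Trim genes higher and 12 lower with SA than with LPS, against 22.1% of all genes called (13% higher, 9.11% lower). The 12 lower were all among the 14 that LPS raised. The largest differences were -2.86 ± 0.13 for Trim30d, -2.52 for Trim21, -2.14 for Trim30a, -1.70 for Trim12a and -1.35 for Trim12c. Trim34a was 1.31 lower on the log2 scale.

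Trim59 differed by 1.22 (limma adjusted p = 3.12e-06), since the 5 h SA arrays measured 5.68, 5.70, 5.15 and 5.91, all above the LPS arrays. Trim37 was higher with SA by 0.70 (limma adjusted p = 0.00227), on arrays that overlapped. Of the 14 risen genes, Trim13 and Trim6 were not called. Trim13 stood at 6.52 with SA and 6.97 with LPS (difference -0.45, limma adjusted p = 0.0717). Trim13 passed in 4 of 16 alternative fits. Neutrophil markers were lower with SA than with LPS in 4 of 6 and macrophage markers in 2 of 7, with none higher in either list. The part of these markers in the Trim differences was not tested.

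At 20 h, SA and OA differed most in Trim59. Limma called 2 Trim genes higher and 2 lower with SA, against 16.7% of all genes called (7.72% higher, 8.95% lower), with a median difference of 0.07 over the 59 members and 0.03 over all genes. Trim59 measured 6.14, 5.76, 5.92 and 5.73 with OA and 3.98, 3.71, 4.26 and 4.51 with SA. The arrays did not overlap, and the difference was -1.77 ± 0.17 (3.41-fold lower with SA, adjusted p = 1.25e-08). It ranked 72 among the falls of all genes.

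The other called genes at 20 h differed less, Trim46 and Trim39 at low levels. Trim46, a microtubule-associated protein of axons, measured 3.39, 3.41, 3.44 and 3.34 with OA and 3.91, 3.85, 3.67 and 3.92 with SA (0.44 ± 0.10 higher, limma adjusted p = 0.00234). Trim39 measured 3.96, 3.72, 3.79 and 4.00 with OA and 4.18, 4.50, 4.30 and 4.25 with SA (0.44 ± 0.12 higher, limma adjusted p = 0.00941). Trim47 measured 5.67, 5.72, 5.84 and 5.84 with OA and 5.24, 5.57, 5.54 and 5.14 with SA (0.40 ± 0.10 lower, limma adjusted p = 0.00418). None of these 3 overlapped between the acids, and the 4 calls at 20 h were kept in every alternative fit.

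None of the 14 genes that LPS raised was called between the acids at 20 h. Among the cluster genes, Trim12c measured 5.05, 5.53, 5.61 and 5.61 with OA and 5.84, 5.92, 5.80 and 6.22 with SA. Its arrays did not overlap, and the difference of 0.50 (95% interval 0.08 to 0.91) had a limma adjusted p of 0.105, or 0.0331 with only these 2 groups fitted. The difference was 0.05 for Trim30d (95% interval -0.23 to 0.32), 0.00 for Trim30a (-0.16 to 0.17) and -0.13 for Trim34a (-0.32 to 0.06). Outside the cluster list, Trim21 differed by -0.33 (-0.63 to -0.03, limma adjusted p = 0.149). Trim25 stood at 8.02 with SA and 8.24 with OA (limma adjusted p = 0.0835), and passed with an intensity trend (0.0323) or quantile normalization (0.045). The intervals of 58 members lay within a 2-fold change, all but that of Trim59.

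Other genes of the pathway moved at 20 h, with 2 of 19 higher and 5 lower with SA, among them Irf1 (0.81 higher) and the adaptor Sting1 (-0.84). Macrophage markers were lower with SA, with 6 of 7 called lower and none higher (median -0.80). Their mean was 9.03 to 9.15 on the SA arrays and 9.91 to 9.95 on the OA arrays. No neutrophil marker was called. The part of these markers in the Trim differences was not tested.

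**Figure D5:**
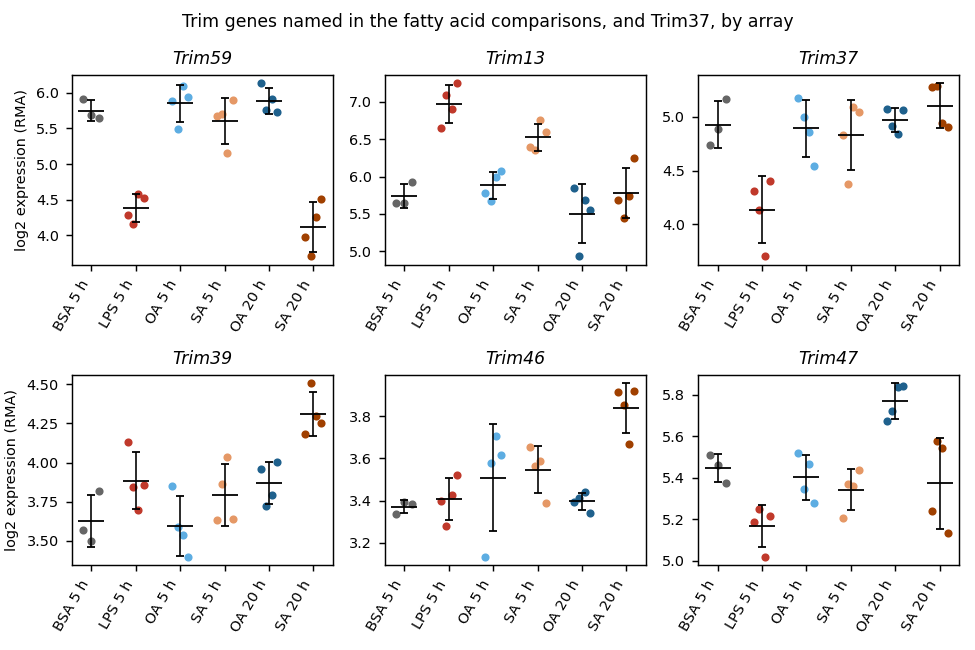
Level of Trim genes called in a comparison of fatty acids, and of Trim37, on each of the 23 arrays (points, log2 expression), with group mean and SD (black). Trim37 was called only in comparisons with the LPS group. Trim59 lies between 3.71 and 4.51 in the 20 h SA group and between 4.16 and 4.58 with LPS, against 5.15 to 6.14 in the other groups.

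The change from 5 h to 20 h was tested for each acid, and then as a difference between the acids. With SA, 2 Trim genes were higher and 3 lower at 20 h than at 5 h, against 12.8% of all genes called (6.23% higher, 6.57% lower). Trim59 fell by 1.49 (SE 0.17, limma adjusted p = 3.35e-07), on arrays that did not overlap. Trim13 measured 5.69, 5.45, 5.75 and 6.25 at 20 h, 0.74 ± 0.17 lower than at 5 h (limma adjusted p = 0.00435). Trim39 rose by 0.52 ± 0.12 (limma adjusted p = 0.00315). The chromatin co-repressor Trim24 rose by 0.35 ± 0.08 (limma adjusted p = 0.00343), and missed the threshold in the fit of the 2 groups alone (adjusted p = 0.0564). Trim38 was lower by 0.43 on overlapping arrays near 2 (limma adjusted p = 0.0195), and its call was lost in 5 fits, among them those without 5 h SA array 2 or 4 or 20 h SA array 3 or 4. Without array 2 of 20 h SA, 7 members were called in place of 5. From 5 h to 20 h with SA, 4 of 7 macrophage markers fell and 1 rose, while 3 of 6 neutrophil markers rose and none fell. The macrophage list mean was 9.35 to 9.39 at 5 h and 9.03 to 9.15 at 20 h, and the neutrophil list mean 6.91 to 7.28 and 7.36 to 7.55. Their part in the Trim differences was not tested.

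With OA, 2 Trim genes were higher at 20 h and none lower, against 4.38% of all genes called (2.58% higher, 1.8% lower). They were Trim47 (0.37 ± 0.10, limma adjusted p = 0.0253) and Trim25 (0.32 ± 0.08, limma adjusted p = 0.027). Both calls were lost in part of the alternative fits, for Trim47 under quantile normalization (adjusted p = 0.0666) and for Trim25 with arrays centred on their median (0.0832). Without 5 h OA array 2, 5 h OA array 4, 20 h OA array 3 or 20 h OA array 4, Trim47 had adjusted p of 0.0758 to 0.0966. Without 5 h OA array 2 or 3 or 20 h OA array 1, 2 or 4, Trim25 had adjusted p of 0.0525 to 0.12. Trim59 differed by 0.03 between the times (95% interval -0.31 to 0.38). With OA, 3 of 7 macrophage markers and 1 of 6 neutrophil markers rose and none fell, and their part was not tested.

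The difference between SA and OA changed from 5 h to 20 h in 1 of 59 Trim genes by limma's interaction test, against 4.98% of all genes called (1.58% up, 3.4% down). The gene was Trim59. Its SA minus OA difference was -0.25 at 5 h (95% interval -0.59 to 0.10) and -1.77 at 20 h, a change of -1.53 ± 0.24 (limma adjusted p = 0.000109). The adjusted p lay between 9.49e-06 and 0.000687 in all 24 alternative fits, each array left out in turn among them.

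For Trim59 over the 6 groups, the lowest means were 4.11 ± 0.35 with SA at 20 h and 4.39 ± 0.20 with LPS at 5 h, whose arrays overlapped. Next came 5.61 ± 0.32 with SA at 5 h, 5.75 ± 0.15 with vehicle, 5.85 ± 0.26 with OA at 5 h and 5.88 ± 0.19 with OA at 20 h (SD, n = 4, or n = 3 for vehicle). These 4 groups overlapped with one another. No vehicle of 20 h was measured, so for SA at 20 h only the comparisons with OA at 20 h and with SA at 5 h were made.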

How the data were processed

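The deposited table holds 1 log2 expression value per probe set and array, made with RMA per the submitters' processing notes, which also name limma without a role. The array's genome build is not given in the sources used here. Of 35556 probe sets, 21789 with 1 symbol were used, 1621 had several and 12146 were not in the probe table. The probe set with the highest mean stood for a gene, which left 19938 genes, with no filter on low values. RMA summarises probes to relative levels, and the number of arrays limits the precision.

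limma 3.58.1 in R 4.3.3 fitted a mean for each of the 6 groups to all genes, with moderated variances and Benjamini-Hochberg adjustment, tested two-sided. The fit was tested on simulated data. Figures used Python 3.11.15 and matplotlib 3.10.9. The members, the role and marker lists and the tests were chosen with earlier results of these data known. Named genes were the 6 called members with the largest change in each comparison and 17 anchor genes. Further called members, and runs of neighbouring genes, were named after their values were seen. RefSeq's GRCm38.p6 tables gave promoters and gene order. Alternatives were an intensity trend with robust moderation, centring, quantile normalization, array weights, leaving out the dimmest 25% of genes, the mean over probe sets, the replicate number as a block, fits restricted to the groups of a comparison, and each array omitted in turn. A fit of all probe sets was added after seeing the data.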

Additional observations from a re-analysis of the deposited data

Results flagged for a closer look

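Trim12c had an array apart from its group in 3 of the 5 groups of 4, by Dixon's criterion. It measured 7.52 on LPS array 4 against 6.80 to 6.91 on the others, 4.89 on 5 h OA array 2 against 5.89 to 6.05, and 5.05 on 20 h OA array 1 against 5.53 to 5.61. These were the only ones among 115 pairs of a named gene and a group that were checked, and chance alone gives about 1 in 20.

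The difference of Trim59 between SA and OA changed by -1.53 from 5 h to 20 h, by the interaction test of limma.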

How the results depend on the processing

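No named value that was called changed sign in any alternative. With LPS against vehicle, 17 to 21 Trim genes were called, and 13 of the 14 rises passed in all alternatives, Trim6 being the exception. SA against LPS gave 16 to 21, SA against OA at 20 h gave 4 to 6, and OA against vehicle gave 0 in all. SA against vehicle at 5 h (1 called) gave 2 with an intensity trend and 0 to 1 with an array left out. SA against OA at 5 h (4) gave 2 with array weights, 1 in the fit of the compared groups alone and 1 to 3 with an array left out. SA at 20 h against 5 h (5) gave 8 under quantile normalization, 3 with the compared groups alone and 4 to 7 with an array left out. OA at 20 h against 5 h (2) gave 1 under centring, quantile normalization or the compared groups alone, and 0 to 3 with an array left out. The change between times (1) gave 2 under quantile normalization, 3 with array weights and 1 to 2 with an array left out. The causes were not tested.

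The replicate numbers were not taken to pair the samples, since the labels do not say that they do. Deviations were correlated over 0.1 in 7 of 55 pairs of same-numbered arrays (median 0.0166, -0.124 to 0.201). They were so in 4 of 165 pairs with different numbers (median -0.00282, -0.221 to 0.255). Of 23 arrays, 9 correlated best with their own number. Whether the numbers pair the samples is not known. With the replicate block, 20 Trim genes were called for LPS against vehicle, 1 and 0 for SA and OA against vehicle, 3 for SA against OA at 5 h and 5 at 20 h, 20 for SA against LPS, 5 and 2 for 20 h against 5 h with SA and OA, and 1 for the change between times. Among named genes the block changed 3 calls: Trim38 was lost for SA against OA at 5 h (limma adjusted p = 0.0507), while Trim33 for LPS against vehicle (0.0492) and Trim13 for SA against LPS (0.0282) were gained.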

Other observations

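Probe sets that carry several symbols, among them a Trim gene, were left out of the family and tested in a fit of all 35556 probe sets. The probe set shared by Trim30b and Gm38525 stood at 4.91 with LPS and 2.51 with vehicle (difference 2.40, limma adjusted p = 9.75e-13). A probe set shared by Trim5 and Trim12c was higher with LPS by 0.91 (limma adjusted p = 1.64e-05), and one shared by Trim5, Trim12c and Trim12a by 0.88 (limma adjusted p = 7.73e-06). The probe set of the Trim43 genes was higher by 0.71 (limma adjusted p = 0.00136), and that of Trim60 and Trim61 differed by 0.23 (limma adjusted p = 0.204). The probe set shared by Trim17 and H2aw differed by 0.08 with LPS and at 20 h was lower by 0.44 with SA relative to OA (limma adjusted p = 0.00157). In that fit 19 of the 59 Trim genes were called for LPS against vehicle, of which 14 rose.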
